A study of Mus musculus with 11 samples.

Results

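Chromosome 3 of the mouse carries Pik3ca, and it is read here by position in 11 mammary tumours. Its members were all non-control probes that the array files place on chromosome 3 of mouse build mm9, 9463 of the 170305 probes of the array. They run from position 3000029 to 159598830 and are named after 1066 genes or transcripts. Within the chromosome no probe was chosen by its values, but the chromosome itself was chosen with earlier results of these data known. The tumours arose in Pik3ca H1047R mice of mixed FVBN/Bl6 strain, 1 tumour for each of 11 animals. The DNA of each tumour was hybridised on an Agilent 2-colour array in Cy5 (red), together with liver DNA of the same animal in Cy3 (green). The tumours form 1 group, numbered 1 to 11 as in the labels, and the livers carry the same genotype and strain background. The promoter or Cre line that drives the mutant and the age of the animals are not given in the sources used here. A tumour sample is bulk DNA, so the number of extra copies in a cell and the share of cells that carry them cannot be told apart.

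Pik3ca encodes the catalytic subunit alpha of PI3-kinase, which makes the membrane lipid signal that activates AKT. H1047R is a common activating change of this enzyme in human breast cancer. Tumour cells often gain or lose whole chromosomes through errors in cell division, while gains with sharp edges inside a chromosome need breaks in its DNA. Mouse chromosomes have their centromere at the low end of the coordinates, so a long gain that starts at the first probe begins next to the centromere. In an array comparison the log2 ratio of tumour over liver is 0 where both have the same copy number relative to the centre of the array. A single extra copy in every cell of a diploid tumour would read 0.58.

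The gene of the model is read by 4 probes, each of 60 bases, between 32340092 and 32363579. Their sequences are shown because every statement on Pik3ca rests on these 4 probes. Each is printed in the order of the deposited file, taken as 5′ to 3′, with G and C in capitals to show the GC content. The strand was not determined here, and exons and introns of mm9 were not used here.
Pik3ca probe 1, chr3:32340092-32340151: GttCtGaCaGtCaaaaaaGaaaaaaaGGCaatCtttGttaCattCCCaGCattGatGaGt
Pik3ca probe 2, chr3:32345895-32345954: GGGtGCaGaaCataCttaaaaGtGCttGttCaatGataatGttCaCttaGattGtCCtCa
Pik3ca probe 3, chr3:32354994-32355053: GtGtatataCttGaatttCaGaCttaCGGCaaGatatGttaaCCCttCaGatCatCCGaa
Pik3ca probe 4, chr3:32363520-32363579: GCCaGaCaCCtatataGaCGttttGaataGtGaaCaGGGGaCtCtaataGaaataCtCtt
The GC content was 35.0%, 36.7%, 36.7% and 38.3% in this order, against a mean of 36.7% over the probes of chromosome 3 and 36.8% over the other autosomes. Over 11 tumours the 4 probes had mean log2 ratios of 0.11, 0.21, 0.34 and 0.37, with SDs of 0.33, 0.29, 0.32 and 0.17. Probe 4 was above 0 in 11 of 11 tumours and probe 1 in 7 of 11, so the 4 probes of the gene differed among themselves.

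The probes lie on arrays of unequal noise. The SD between neighbouring probes was lowest in tumour 8 (0.13) and highest in tumours 11 and 9 (0.51 and 0.55), and the share of chromosome 3 spots not well above background ran from 0.0104% to 10.1%. No chromosome 3 spot was saturated. All arrays have the same dye orientation per the labels, yet tumour 11 ran opposite to tumours 4, 5, 9 and 10 over all probes (Pearson's r = -0.60, -0.61, -0.65 and -0.32). With tumours 1 and 6 its r was 0.08 and 0.25, and with tumours 2, 3, 7 and 8 it was -0.06, -0.10, -0.22 and -0.04. Tumours 4, 5 and 9 resembled each other, with r from 0.71 to 0.78. Whether the direction of tumour 11 is reversed was not tested. The labelled direction was kept, and values with the ratios of tumour 11 turned are given beside the counts and calls that they change. Values are relative to the median of each array, so they shift with its centre. The mode of the autosomal ratios lay 0.158 above the median in tumour 7 and at -0.132 in tumour 8, and between -0.010 and 0.052 in the other 9 tumours.

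The first question was how much of chromosome 3 each tumour had gained. The mean log2 ratio over its probes was 0.38 in tumour 1, 0.39 in tumour 2, 0.26 in tumour 3 and 0.23 in tumour 4. It was 0.19 in tumours 5 and 6, 0.16 in tumour 7, 0.15 in tumour 8 and 0.13 in tumour 9. Tumours 10 and 11 stood at the centre of their arrays, with 0.01 and -0.03. The mean was thus above 0 in 10 of 11 tumours, or in 11 of 11 with tumour 11 turned. The values between 0.13 and 0.26 formed a nearly even series. Tumours 1 and 2 stood apart above this series, and tumours 10 and 11 below it. Among the 19 autosomes chromosome 3 had the highest mean in tumours 1, 2, 4, 5, 9 and 10, the next highest in tumours 3 and 6, and rank 3 and 4 in tumours 7 and 8. It ranked 17 in tumour 11, and 3 with the ratios of that tumour turned. The ranks do not change with the centre of an array, but the level does. With the mode as the centre, tumour 7 read 0.00069 on chromosome 3 and tumour 8 read 0.29. The 3 slides had chromosome 3 means of 0.27 (n = 3), 0.12 (n = 4) and 0.19 (n = 4). Slide 2, at 0.12, held tumours 4, 7, 9 and 11. Only these arrays were read with Feature Extraction 11.0.1.1, so this slide and the software version cannot be told apart.

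To separate whole from partial gains, the probes were divided into segments of like ratio. Segments of 10 or more probes whose mean reached 0.2 were called gains. Gains covered 83.3% of the chromosome 3 probes in tumour 1, 99.9% in tumour 2 and 80.8% in tumour 4, which passed the 80% set for a whole gain. The gained share of all autosomal and X probes on these arrays was 5.78%, 19.9% and 4.69%. Gains covered 32.4% of chromosome 3 in tumour 3 and 30.7% in tumour 6, both partial, against 11% and 10.2% over the array. Tumour 11 had a single gain over 1.15% of the probes, near its share over the array of 1.09%. Tumours 5, 7, 8, 9 and 10 had none, while the array shares were 0.0165%, 5.61%, 13.9%, 0% and 0%. Tumour 1 and tumour 4 lay just inside the 80% limit, and the next share below it was the 32.4% of tumour 3.

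The threshold of 0.2 split tumours that hardly differed in level. Tumour 5 formed a single segment of 0.19 over the full 156.6 Mb, and tumour 8 one of 0.16 over 154.3 Mb, neither of them called. Tumour 6 alternated between called segments of 0.20 to 0.32 and long uncalled ones of 0.16 to 0.19. Its 1 Mb bins ran only from 0.11 to 0.26 and their SD was 1.66 times that given by probe noise. Tumour 6 is therefore partial by the rule and nearly even by its profile. A threshold of 0.15 gave whole gains in 7 tumours, which were tumours 1, 2, 4, 5, 6, 7 and 8, and a threshold of 0.3 left whole gains in tumours 1 and 2. Centring on the mode gave 5 whole gains, with tumours 5 and 8 added, and normexp background correction also gave 5, with tumours 5 and 6 added. Tumour 4 fell to 75.3% to 78.8% of its probes, and so to a partial gain, in the authors' value table, with the deposited LogRatio, without dim probes and after the GC fit.

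**Figure D1:**
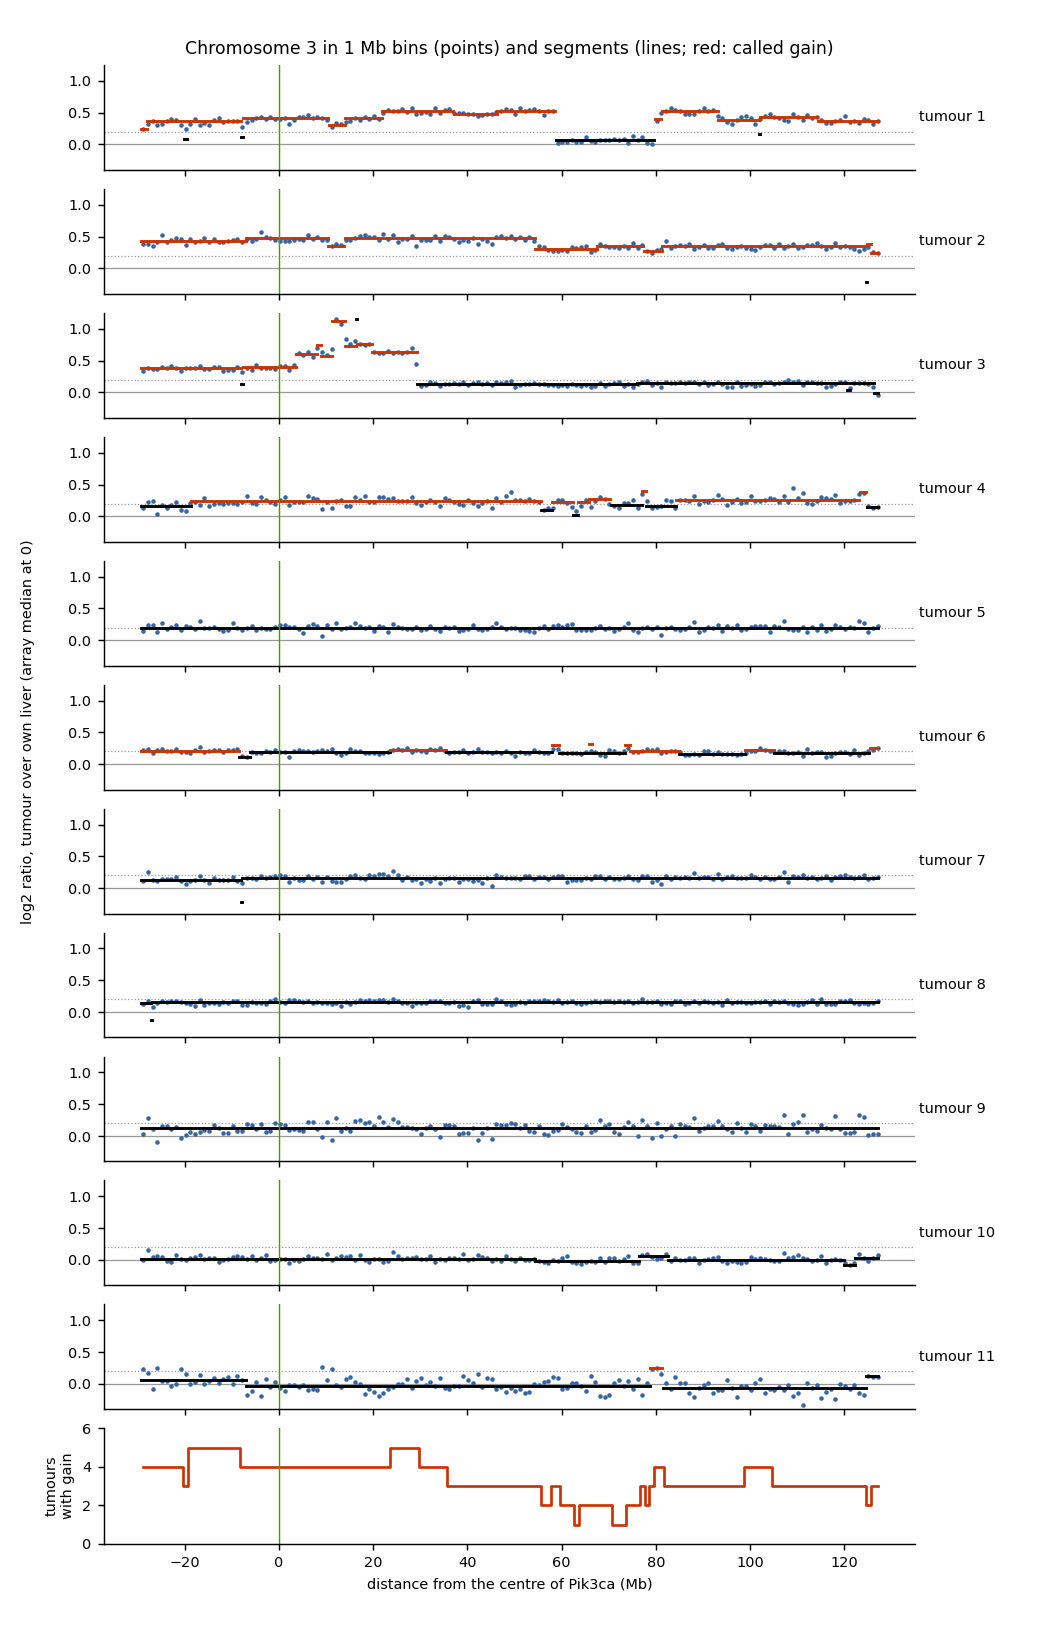
Log2 ratio of tumour over own liver (vertical axis, array median at 0) along chromosome 3, by distance from the centre of Pik3ca in Mb, in 11 tumours. Points are 1 Mb bins, lines are segment means with called gains in red and the rest in black, the dotted line is the threshold of 0.2, and the green line is Pik3ca. The bottom track counts the tumours with a gain, from 1 to 5. Tumours 1 and 3 step between levels, while tumours 5, 7 and 8 form near-flat lines just under the threshold.

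Tumours 1, 2 and 3 had levels that varied along the chromosome by far more than probe noise, with bin SDs 6.42, 3.33 and 10.7 times the expected value, against 1.1 to 1.69 times in the other 8. In tumour 1 the gain was broken by a stretch close to the level of liver. Positions 4357123 to 91004228 stood at 0.31 to 0.53 in their called segments. The next 21.0 Mb, from 91048125 to 112066004, read 0.07 over 1527 probes (SD 0.17 over probes). Beyond it the gain resumed at 0.40 and continued at 0.38 to 0.53 in the called segments up to the last probe. The ratio thus dropped by 0.46 and rose again by 0.34, both within a gap of less than 50 kb between neighbouring probes. Both edges lay at the same positions when the penalty on new segments was halved or doubled.

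The probes on either side of these edges are shown because they bound the ungained stretch of tumour 1. G and C are in capitals, as above.
Last probe before the stretch, chr3:91004169-91004228, named Pglyrp4: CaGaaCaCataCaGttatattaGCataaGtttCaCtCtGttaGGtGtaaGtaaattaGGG
First probe in the stretch, chr3:91048125-91048184, named Pglyrp3: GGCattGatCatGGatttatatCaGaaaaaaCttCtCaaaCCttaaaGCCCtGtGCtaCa
Last probe in the stretch, chr3:112065945-112066004, named AK090313: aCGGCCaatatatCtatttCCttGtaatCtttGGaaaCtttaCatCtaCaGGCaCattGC
First probe after the stretch, chr3:112113219-112113278, named ENSMUST00000122117: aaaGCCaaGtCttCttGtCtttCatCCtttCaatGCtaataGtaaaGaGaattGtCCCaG
The first edge falls between 2 genes of peptidoglycan recognition proteins, which bind bacterial cell walls in epithelia. The gap between the probes was 43.9 kb there and 47.2 kb at the far edge, which limits how well either break is placed.

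Outside tumour 1 only tumours 10 and 11 stood near the level of liver in this stretch, as they did over the whole chromosome. From 91004169 to 111977671 (1526 probes) the mean of 11 tumours was 0.14 (SD 0.10), against 0.19 (SD 0.16) in the stretch before it and 0.18 (SD 0.14) after it. Tumour 2 was the highest here with 0.33, and tumours 4 to 8 read 0.15 to 0.20. Tumours 10 and 11 were lowest, both at or just below 0 (-0.0037 and -0.02). Without tumour 1 the 3 means were 0.14, 0.16 and 0.15. Tumour 2 stepped down close to this stretch too. It read 0.43 to 0.47 up to 86738655, apart from 0.36 between 42776566 and 46235904, and 0.25 to 0.38 in the called segments from 86760673 on. A stretch of 13 probes at 156932645 to 157173714 was below liver in tumour 2, with -0.22.

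Tumour 3 had the highest values of the chromosome, and its gain stopped before the middle. The first 21.3 Mb read 0.38 and the segment with Pik3ca, from 24631448 to 35974798, read 0.39. From 35981649 to 61543273 the level rose to between 0.57 and 1.12 in the called segments. The peak lay at 43651679 to 46269638 with a mean of 1.12 over 92 probes (SD 0.20 over probes). If the centre of the array stands for 2 copies, this is 4.33 copies averaged over the cells of the sample. A further 5 probes at 48760934 to 48899137 read 1.15, too few for a call. From 61595064 to 158670556 the tumour stood at 0.03 to 0.14, and no gain was called from there to the last probe.

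The probes at the main steps of tumour 3 are shown because they bound the rise above the flat gain, the peak and its end. G and C are in capitals.
Before the rise, chr3:35974739-35974798, named Acad9: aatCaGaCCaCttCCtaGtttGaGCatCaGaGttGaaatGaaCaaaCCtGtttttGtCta
After the rise, chr3:35981649-35981708, named Acad9: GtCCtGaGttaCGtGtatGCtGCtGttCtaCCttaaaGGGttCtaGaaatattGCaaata
Before the peak, chr3:43612388-43612447, named AK143464: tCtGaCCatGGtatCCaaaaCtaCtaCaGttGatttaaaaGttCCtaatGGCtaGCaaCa
First in the peak, chr3:43651679-43651738, named AK143547: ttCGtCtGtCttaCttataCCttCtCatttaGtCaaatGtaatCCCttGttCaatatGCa
Last in the peak, chr3:46269579-46269638, named Pabpc4l: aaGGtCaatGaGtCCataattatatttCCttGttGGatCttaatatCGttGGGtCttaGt
After the peak, chr3:46296433-46296492, named AK155972: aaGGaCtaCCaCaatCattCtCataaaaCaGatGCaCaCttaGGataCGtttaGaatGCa
Last in the gain, chr3:61543214-61543273, named Rap2b: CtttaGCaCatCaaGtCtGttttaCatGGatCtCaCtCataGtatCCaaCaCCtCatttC
After the gain, chr3:61595064-61595123, named AK033940: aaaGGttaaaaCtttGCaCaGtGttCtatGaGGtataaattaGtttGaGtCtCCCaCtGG
The level rose by 0.21 at the first of these edges, where both probes carry the name of Acad9, a mitochondrial acyl-CoA dehydrogenase, and lie 6.85 kb apart. It rose by 0.54 into the peak, dropped by 0.39 after it, and dropped by 0.51 at the end of the gain, next to the probe named for Rap2b, a small GTPase of the Ras family. All 4 edges were found at the same positions with the penalty halved or doubled.

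Tumour 4 had an even profile of lower height. A gain of 0.24 ran from 13569348 to 88054756, and gains of 0.22 to 0.40 covered most of the rest. Lower segments lay between them, among them 0.16 over the first 10.6 Mb, 0.10 at 88064412 to 90286369, 0.03 at 94726696 to 95776296, 0.18 at 102731201 to 109346063, and 0.17 at 110257046 to 116625594. This array has a probe noise SD of 0.28, and its bin SD was 1.69 times that given by noise. With the penalty doubled, 100% of its chromosome 3 probes lay in a gain, so the lower segments depended on this setting. Tumours 5 to 9 showed little structure, with 157 of 157 bins above 0 in tumours 5, 6, 7 and 8 and 148 in tumour 9. In tumour 10 the bins above 0 were 104 of 157 and in tumour 11 they were 67 of 157. The gain of tumour 11, at 111140358 to 113763173 with 0.25 over 109 probes, was not there when its ratios were turned.

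Set side by side, the calls gave a count of gained tumours at each position. Every probe of chromosome 3 lay in a gain of at least 1 tumour, since tumour 2 or tumour 1 covered it. The count was 1 at 374 probes (3.95%), 2 at 1278 (13.5%), 3 at 3892 (41.1%), 4 at 3134 (33.1%) and 5 at 785 (8.30%). The 5 tumours that shared the last class were 1, 2, 3, 4 and 6. They shared a stretch of 10.2 Mb at 13569348 to 23788055 (492 probes) and one of 5.62 Mb at 55926096 to 61543273 (293 probes). The lowest counts, with tumour 2 alone, were found mainly at 94726696 to 95776296 and at 102643290 to 105728911.

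The edges of the shared stretches were set by small steps in tumours 4 and 6 and, at 61543273, by the end of the gain of tumour 3. At 13557319 to 13569348 tumour 4 went from 0.16 to 0.24, and at 23788055 to 23808181 tumour 6 went from 0.21 to 0.12. At the start of the second stretch tumour 6 went from 0.19, across 6 probes at -0.12, to 0.22. The means over 11 tumours did not single out the first stretch. From 13435805 to 23867627 (508 probes) the mean was 0.20 (SD 0.14), the same as the 0.20 (SD 0.13) before it and near the 0.21 (SD 0.16) after it up to 35993930. From 36001288 to 61595123 (1327 probes) it was 0.25 (SD 0.21), with tumour 3 at 0.69, tumours 1 and 2 at 0.45 and 0.46 and the others from -0.03 to 0.24. Without tumour 3 this mean was 0.20, close to the 0.19 of the stretch before it without the same tumour. Both stretches were chosen with their values known and were not tested.

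**Figure D2:**
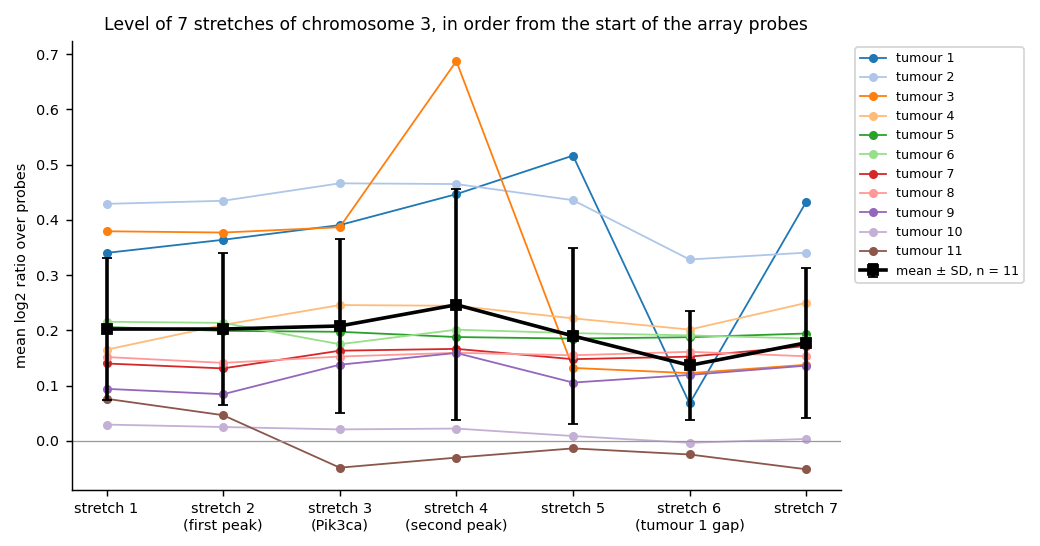
Mean log2 ratio over the probes (vertical axis) of 7 stretches of chromosome 3 in order along the chromosome (horizontal axis), with a line for each of 11 tumours and the mean ± SD in black. Tumour 3 reaches 0.69 in the second peak, tumour 1 drops to 0.07 in its gap, and tumours 5 to 10 stay nearly level.

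Single genes were tested with limma, fitted over all genes with at least 3 probes and called where the adjusted p was under 0.05 and the mean lay 0.1 or more from 0. On chromosome 3, 259 of 488 tested genes were called higher (53.1%), against 4.6% of all 9377 tested genes and 1.94% of the 8889 genes elsewhere. None was called lower, and none was below 0 at an unadjusted p under 0.05, while 2.29% of all genes were called lower. Gene means were above 0 for 484 of the 488 genes, with a median of 0.19, against -0.01 over all tested genes. In 1 Mb bins the same fit called 157 of 157 bins of chromosome 3 higher, against 9.96% of 2531 bins on the array and 4.00% of the bins elsewhere. No bin of the chromosome was called lower, against 3.48% on the array. The lowest bin mean was 0.11, in the bin that starts at 96 Mb, and the highest 0.30, in the bin that starts at 56 Mb. The count of genes rested on many tumours. It was 43 without tumour 3, 48 without tumour 6, 60 without tumour 2, 91 without tumour 1, 95 without tumour 4, 99 without tumour 7, 112 without tumour 8 and 114 without tumour 5. With the mode as the centre it was 83, and without the noisy tumours 9 and 11 it was 414. With tumour 11 turned, 349 genes and 150 bins were called higher, and with the mode 115 bins.

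Genes in the first shared stretch included Ralyl, an RNA-binding protein gene, which spans 74 probes and had a mean of 0.20 (SD 0.16, n = 11). It was higher in the tumours (limma adjusted p = 0.0250). Cyp7b1, an oxysterol hydroxylase, had 0.26 (SD 0.21, adjusted p = 0.0224 by limma). Tbl1xr1, a subunit of the NCoR corepressor, read 0.46, 0.48 and 0.37 in tumours 1, 2 and 3 but -0.21 in tumour 11, and did not pass (mean 0.16, SD 0.22, limma adjusted p = 0.115). Between 36001288 and 61595123 Med12l, a homologue of a Mediator subunit, read 0.61, 0.50 and 0.69 in the first 3 tumours and was higher (mean 0.27, SD 0.23, limma adjusted p = 0.0235). Nbea, a neuronal trafficking protein, has 58 probes and was higher as well (mean 0.23, SD 0.22, limma adjusted p = 0.0344). Of the tested genes, 11 of 21 in the first stretch, 40 of 58 in the latter and 26 of 102 in the ungained stretch of tumour 1 were called higher, beside 53.1% over the chromosome and 4.6% over the array. The share of the first stretch was thus near that of its chromosome, and all 3 stretches were chosen with their values known.

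The chromosome was also divided into 3 equal parts by position, to ask whether the gain was stronger near the centromere. The part nearest the centromere (to 55194600) had a mean of 0.22 (SD 0.16), the middle one 0.18 (SD 0.13) and the last one, from 107401604, 0.17 (SD 0.13). The difference between the first and last parts was 0.36 in tumour 3 and 0.12 in tumour 2, and lay between -0.02 and 0.04 in the other 9 tumours. Its mean was 0.04 (95% interval -0.03 to 0.12), above 0 in 7 of 11 tumours, and did not pass (two-sided exact sign-flip permutation test, p = 0.189, or 0.236 after adjustment for 5 such tests). Without tumour 3 the mean was 0.01. With the chromosome divided into 2 equal parts instead, the difference was 0.05 and above 0 in 8 of 11 tumours. It did not pass after adjustment either (exact permutation p = 0.0361, adjusted 0.0903). Turning tumour 11 left 6 of 11 differences above 0 (mean 0.04, adjusted exact permutation p = 0.425). Called genes were 80 of 114 (70.2%), 84 of 191 (44.0%) and 95 of 183 (51.9%) in the 3 parts, beside 53.1% of all tested genes of the chromosome.

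Pik3ca lay inside a called gain in tumours 1, 2, 3 and 4, and each of these gained segments reached far beyond the gene. The shortest was the 11.3 Mb of tumour 3, followed by 17.4 Mb in tumour 2, 18.2 Mb in tumour 1 and 74.5 Mb in tumour 4. The gene itself read 0.59 in tumour 1, 0.57 in tumour 2 and 0.47 in tumour 3, then 0.27, 0.24, 0.26 and 0.23 in tumours 4 to 7. It read 0.08, 0.01, 0.09 and 0.03 in tumours 8 to 11. The first 3 tumours stood apart at the top and the last 4 at the bottom, with SDs among the 4 probes from 0.02 in tumour 6 to 0.52 in tumour 11. The mean was 0.26 (SD 0.21, n = 11), and the gene was called higher by limma (adjusted p = 0.0215), rank 51 among the 488 tested genes of the chromosome. The call was lost without tumour 2, 3 or 6, with limma adjusted p of 0.0510, 0.0557 and 0.0532.

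Whether Pik3ca stood above its chromosome was asked within each tumour, which removes the centre of the array. Against the rest of chromosome 3 the gene was higher by 0.21 in tumour 1, 0.17 in tumour 2 and 0.22 in tumour 3. It was higher by 0.04 to 0.08 in tumours 4, 5, 6, 7, 10 and 11, and lower in tumours 8 and 9, with -0.08 and -0.12. The mean difference was 0.07 (95% interval -0.00066 to 0.14), above 0 in 9 of 11 tumours, and did not pass (two-sided exact sign-flip permutation test, p = 0.0566, adjusted p = 0.142). Against the 709 probes within 5 Mb on both sides the difference was 0.18 in tumour 1, 0.09 in tumour 2 and 0.04 in tumour 3. Its mean was 0.04 (95% interval -0.01 to 0.10, 9 of 11 above 0, exact permutation p = 0.117, adjusted 0.195). With tumour 11 turned both differences were above 0 in 8 of 11 tumours, with means of 0.06 and 0.03 (adjusted exact permutation p = 0.283 and 0.369). Without tumour 9, the array with the highest noise, the means were 0.09 and 0.06 and just missed the threshold (adjusted exact permutation p = 0.0537 for both). Among the tested genes of chromosome 3 Pik3ca stood between percentile 85.9 and 94.1 in tumours 1, 2 and 3. It stood at 88.1 and 84.8 in tumours 10 and 6, without a gain call at the gene, and at 11.5 in tumour 8. In the remaining tumours it lay between 30.5 and 75.6. The interval against the flanks leaves room for an excess of up to 0.10, and 4 probes with the spread printed above limit its precision.

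**Figure D3:**
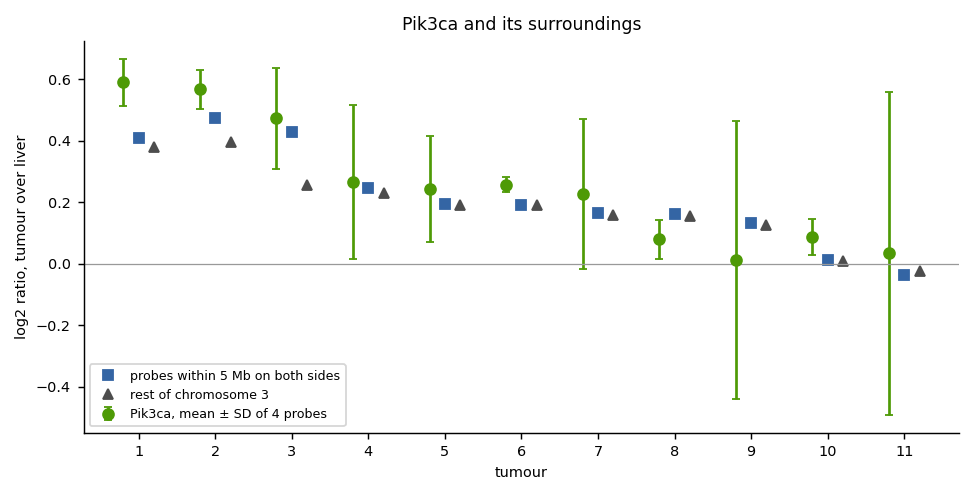
Log2 ratio of tumour over own liver (vertical axis) for Pik3ca, as mean ± SD of its 4 probes in green, beside the mean of the probes within 5 Mb (squares) and of the rest of chromosome 3 (triangles), in tumours 1 to 11 (horizontal axis). Pik3ca lies above both in tumours 1 to 7, 10 and 11 and below both in tumours 8 and 9, and its probe SD reaches 0.52 in tumour 11.

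Genes around Pik3ca whose human counterparts lie in 3q26, a region often gained in human epithelial cancers, were read as a list. Of 29 listed genes 26 had a probe on chromosome 3, and 17 of the 19 with at least 3 probes were called higher. All of them lie in the part nearest the centromere, where 80 of 114 tested genes (70.2%) were called, beside 53.1% over the chromosome. They are neighbours, so their calls are not independent. Of those 26 genes 25 had a mean above 0. Mfn1, which drives fusion of mitochondria and lies close to Pik3ca at 32437081 to 32477037, was gained along with it. It ran from 0.06 in tumour 10 to 0.53 in tumour 2 and was above 0 in 11 of 11 tumours (mean 0.29, SD 0.15, limma adjusted p = 0.0149). Mecom, a zinc finger transcription factor gene known from leukaemia, read 0.41, 0.50, 0.39 and 0.38 in tumours 1 to 4 and -0.19 in tumour 11 (mean 0.22, SD 0.20, limma adjusted p = 0.0307). Prkci, an atypical protein kinase C of cell polarity, read 0.43, 0.49 and 0.46 in tumours 1 to 3 and 0.07 and -0.17 in tumours 10 and 11 (mean 0.21, SD 0.19, limma adjusted p = 0.0358). Ect2, an exchange factor needed for cytokinesis, was called at the edge of the threshold (mean 0.19, SD 0.20, limma adjusted p = 0.0498). The tested genes without a call were Tbl1xr1 and Slc2a2, a glucose transporter gene (mean 0.15, SD 0.28, limma adjusted p = 0.237). Both passed with tumour 11 turned (limma adjusted p = 0.0143 and 0.00883). In the same setting Dcun1d1, called in the labelled direction, lost its call (mean 0.16, limma adjusted p = 0.0527). The single probe of Ghsr was the lowest of the list with -0.34 (SD 0.63), with -1.35 in tumour 11 and -1.13 in tumour 4, and was not tested.

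Growth factors, receptors and members of the RAS and PI3-kinase pathways formed another list. Of 22 genes 21 had a probe on the chromosome, 13 were tested and 8 were called higher, a share near the 53.1% of the chromosome. The called genes were Pik3ca, Pld1, Prkci, Fgf2, Foxo1, Pdgfc, Rap1a and Arhgef2. Fgf2, a fibroblast growth factor at 37249302 to 37302432, read 0.61 in tumour 3, 0.44 in tumour 2 and 0.42 in tumour 1, and -0.02 and -0.10 in tumours 10 and 11 (mean 0.24, SD 0.20, limma adjusted p = 0.0240). Foxo1, a transcription factor that AKT shuts out of the nucleus, read 0.56, 0.50 and 0.48 in tumours 3, 1 and 2, and 0.01 in tumour 5 (mean 0.21, SD 0.21, limma adjusted p = 0.0375). Pdgfc, a ligand of the PDGF receptors at 80842307 to 81008163, lies past the end of the tumour 3 gain and read 0.18 there, with 0.57 in tumour 1 and 0.43 in tumour 2 (mean 0.19, SD 0.19, limma adjusted p = 0.0425). Egf, whose receptor is an oncogene product in many carcinomas, read 0.36 in tumour 1 and 0.07 in tumour 3 and did not pass (mean 0.16, SD 0.17, limma adjusted p = 0.0600). Egf passed with tumour 11 turned (limma adjusted p = 0.00471). The level in tumour 3 thus followed the side of 61543273 on which a gene lay.

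The ungained stretch of tumour 1 holds several genes of these lists. Rap1a, a small GTPase related to Ras, read 0.19 in tumour 1 and 0.38 in tumour 2 and from 0.01 to 0.24 in the other 9, and was called higher (mean 0.15, SD 0.10, limma adjusted p = 0.0279). Nras, the Ras gene of this chromosome, has a single probe, which read -0.08 in tumour 1 and 0.33 in tumour 2, from -0.71 in tumour 11 to 0.59 in tumour 9 elsewhere, and was not tested. Notch2, a receptor of cell fate signalling, read 0.18 in tumour 1 and 0.42 in tumour 2 and did not pass (mean 0.15, SD 0.14, limma adjusted p = 0.0610). Trim33, a chromatin-bound ubiquitin ligase, read -0.03 in tumour 1 and 0.26 in tumour 2 (mean 0.07, SD 0.08, limma adjusted p = 0.233). Vav3, with 35 probes, read 0.12 in tumour 1 and 0.38 in tumour 2 and did not pass (mean 0.16, SD 0.17, limma adjusted p = 0.0532). Notch2 and Vav3 passed with tumour 11 turned (limma adjusted p = 0.0144 and 0.00129). In tumour 1 these 5 genes were all lower than in tumour 2, and none was above 0.19.

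Of 14 transcription and signal regulators with a probe, 10 were tested and 5 were called higher, again near the 53.1% of the chromosome. The called genes were Mecom, Foxo1, Smad9, Wwtr1 and Hipk1. Wwtr1, the Hippo pathway coactivator TAZ, lies in the second shared stretch and read 0.63 in tumour 3, 0.50 in tumour 1 and 0.46 in tumour 2 (mean 0.23, SD 0.22, limma adjusted p = 0.0344). Smad9, a transducer of BMP signals, had a mean of 0.29 (SD 0.25, limma adjusted p = 0.0231). Nfkb1 had a mean of 0.25 but spread from -0.54 in tumour 11 to 0.59 in tumour 4 and did not pass (SD 0.32, limma adjusted p = 0.0673, or 0.00095 with tumour 11 turned). Of the tumour suppressors 8 had a probe, 6 were tested and 3 were called higher, which were Fat4, Tet2 and Foxo1. This too was close to the share of the chromosome. Fat4, a giant cadherin at 38789161 to 38896440, read 0.66 in tumour 3 and -0.30 in tumour 11 (mean 0.26, SD 0.27, limma adjusted p = 0.0408). Tet2, which oxidises methylated cytosine, had a mean of 0.14 (SD 0.12, limma adjusted p = 0.0430) and lost its call with tumour 11 turned (0.122). Of the cell cycle and apoptosis genes 11 had a probe, 3 were tested, and Ect2 and Mnd1 were called, the latter not with tumour 11 turned (limma adjusted p = 0.0556). Of the mammary lineage genes 7 had a probe, 3 were tested and Pdgfc was called. With 3 tested genes neither list can be set against the 53.1% of the chromosome. No gene of the 6 lists was called lower. The medians of the lists over their tested members ran from 0.12 for the tumour suppressors to 0.22 for the 3q26 genes. The median was 0.19 for all tested genes of chromosome 3 and 0.22 for those of the part nearest the centromere.

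A further 5 genes were chosen as markers with their values known, and Hspa4l, Znhit6 and Rnf13 rank 4, 6 and 7 of the 488 tested genes by mean. Hspa4l, a heat shock chaperone gene, lies at 40552198 to 40588139 in the raised stretch of tumour 3. It read 0.77 in that tumour, 0.69 in tumour 1 and 0.58 in tumour 2, and -0.05 in tumour 11 (mean 0.33, SD 0.26, limma adjusted p = 0.0187). Pcdh10, a protocadherin of cell adhesion, and Pabpc4l, a poly(A)-binding protein gene, lie in the peak of tumour 3. Pcdh10 read 1.12 there, 0.37 to 0.45 in tumours 1, 2 and 4, and -0.14 in tumour 11 (mean 0.27, SD 0.33), which did not pass (limma adjusted p = 0.0598). It passed with tumour 11 turned (adjusted p = 0.0138), without tumour 11 (0.0145) and with slide as a random block (0.0185), all by limma. The single probe of Pabpc4l read 1.30 in tumour 3 and 0.04 to 0.54 in the other 10, with no test. Rnf13, a membrane-bound ubiquitin ligase at 57545117 to 57637953, was gained in 5 tumours and ran from -0.02 in tumour 11 to 0.67 in tumour 3 (mean 0.32, SD 0.20, 11 probes, limma adjusted p = 0.0149). Znhit6, an assembly factor of small nucleolar ribonucleoproteins at 145241681 to 145263694, had its highest value of 0.52 in tumour 7 and stood at 0.00053 in tumour 11 (mean 0.33, SD 0.17, limma adjusted p = 0.0149). Tumour 7 had no gain call, and this gene is read by 3 probes.

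**Figure D4:**
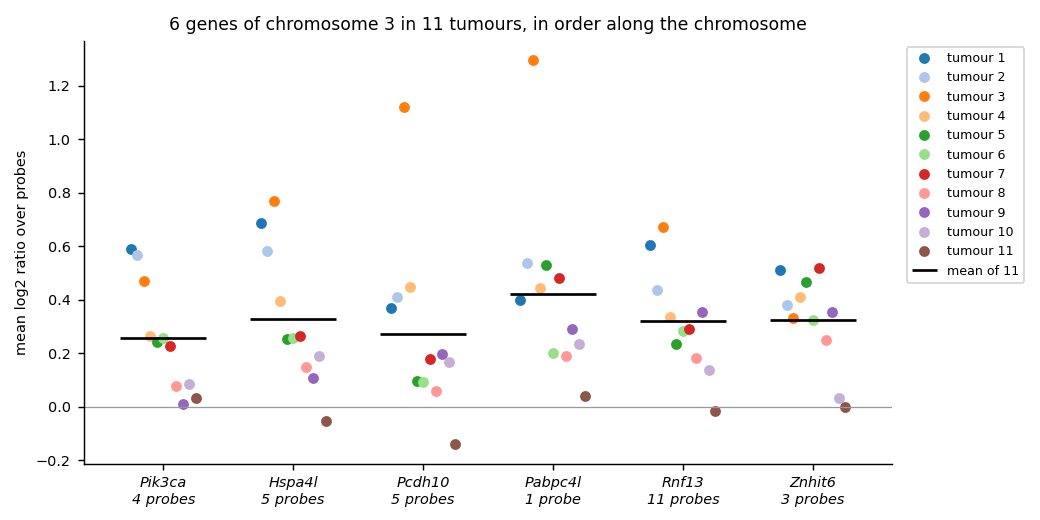
Mean log2 ratio over the probes of 6 genes (vertical axis) in 11 tumours (coloured points), in order along chromosome 3, with the mean as a black line. Pcdh10 and Pabpc4l reach 1.12 and 1.30 in tumour 3, and Znhit6 lies between 0.25 and 0.52 in tumours 1 to 9.

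In each of the 3 equal parts the tested genes with the highest and lowest means were also read. AK139741, AK158543 and Znhit6 were highest in their parts, with 0.35 (SD 0.24), 0.33 (SD 0.36) and 0.33 (SD 0.17), and all were called (limma adjusted p = 0.0150, 0.0412 and 0.0149). The lowest were Phf17 with 0.07 (SD 0.24), Trim2 with -0.12 (SD 0.44) and AK021078 with -0.08 (SD 0.30), none of them called (limma adjusted p = 0.559, 0.546 and 0.599). Trim2, a ubiquitin ligase gene of neurons, read 0.40 and 0.38 in tumours 1 and 2 and -0.57 and -0.96 in tumours 4 and 9. These genes have 3 to 6 probes, and their SD over tumours was in each case above that of the chromosome mean (0.13).

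A short stretch near 24 Mb was lower than its surroundings in most tumours. At 24214355 to 24662547 (25 probes named AK013807 and AK054291) the level minus that of the probes within 2 Mb was -0.26 in tumour 1, -0.17 in tumour 3, -0.16 in tumour 7, and -0.10 in tumour 2 and -0.11 in tumour 6. It was below 0 in 9 of 11 tumours, with a mean of -0.08 (SD 0.10), and above 0 in tumours 9 and 11. In tumour 7 a segment of 13 probes in this stretch, from 24291218 to 24529386, was called below liver with -0.22. The GC content of its probes was 35.9%, against 36.4% in the surroundings. The stretch was chosen with its values known, is not the same length in each tumour, and was not tested.

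The bin profiles of some arrays resembled or mirrored each other. Over 157 bins of chromosome 3 Pearson's r was 0.73 between tumours 4 and 9, 0.63 between tumours 7 and 9, and -0.77 between tumours 4 and 11, all on slide 2. Across slides it was 0.58 between tumours 5 and 9 and 0.55 between tumours 6 and 11. These bins are neighbours on 1 chromosome, so the values are a description. Tumours 1 and 2 had r = 0.45 and tumours 2 and 3 had r = 0.52. The correlation of bin means with GC content was -0.03 for the mean of 11 tumours and lay between -0.24 (tumour 11) and 0.29 (tumour 7) in single tumours. The part of probe composition, slide and software version in this finer structure was not tested.

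Compared with the other often gained chromosomes, chromosome 3 did not stand apart by test. Chromosome 15 had a mean of 0.14 (SD 0.12, n = 11), and chromosome 3 was higher in 6 of 11 tumours, or 7 with tumour 11 turned. The difference was 0.32 in tumour 1 and 0.17 in tumour 2, but -0.15 in tumour 8 and -0.13 in tumour 6. Its mean was 0.04 (95% interval -0.05 to 0.14, two-sided exact sign-flip permutation test, p = 0.324, adjusted p = 0.324). The mean of chromosome 8 was 0.06 (SD 0.14), and chromosome 3 was higher in 9 of 11 tumours, by 0.34 in tumour 1 and 0.33 in tumour 4, with tumours 7 and 11 the other way at -0.16 and -0.05. With tumour 11 turned it was higher in 10 of 11 (mean 0.14, adjusted exact permutation p = 0.0635). The mean difference was 0.13 (95% interval 0.03 to 0.23) and missed the threshold after adjustment (exact permutation p = 0.0205, or 0.103 after adjustment for 5 tests). Without tumour 7, the tumour most against it, the difference was 0.16 and passed (exact permutation p = 0.00586, adjusted 0.0293). Without any other single tumour it did not pass (adjusted exact permutation p from 0.0651 to 0.205). Chromosome 3 was chosen with earlier results of these data known, so neither difference is an unselected comparison.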

How the data were processed

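DNA of 11 tumours was compared with liver DNA of the same animals, with groups and dyes from the labels. Agilent Feature Extraction 10.5.1.1 and Partek made the values, per the submitters' processing notes. Feature Extraction 11.0.1.1 read tumours 4, 7, 9 and 11, and positions are those of mm9, per the file headers. The deposited files give processed intensity of both channels after the authors' background subtraction and dye normalization, raw median intensity, LogRatio as log10 of red over green, and spot flags. The authors' value table holds log2 ratios and served as an alternative.

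The log2 ratio of processed signals was averaged over unflagged spots of a probe and centred on the array median (Python 3.11.15, numpy 2.4.6). Segments of at least 5 probes came from optimal partitioning. Each new segment cost 2 × noise variance × ln(probes), and outliers were pulled in to 4 SD. A share of 80% of probes in gains made a whole gain, and 5% or more a partial one. Bins of 1 Mb with at least 10 probes and genes with at least 3 were tested with limma 3.58.1 against 0. Exact sign-flip tests over 11 tumours were adjusted by Benjamini-Hochberg over 5 tests. Both kinds of test were tested on simulated data. The smallest p of a sign-flip test here is 0.000977. The number of arrays limits the precision, and each animal has 1 array.

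Members, stretches and the 6 gene lists were chosen with earlier results of these data known. Genes were named if they were markers or list members on chromosome 3, highest or lowest of a part, nearest to an edge of a gain, or, between 13435805 and 23867627 or between 36001288 and 61595123, among the 5 with most probes. Alternatives covered centring, background correction, source of values, dim probes, direction of tumour 11, GC content, thresholds, penalty, slide and each tumour left out. Normexp used median spot intensities.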

Additional observations from a re-analysis of the deposited data

How the results depend on the processing

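The number of tumours with a whole gain was 3 and became 5 with centring on the mode or with normexp, 7 at a threshold of 0.15, 1 where a whole gain needed 90% of the probes, 4 with centring outside chromosome 3, 2 at a threshold of 0.3, 2 in the authors' value table, with LogRatio, without dim probes or after the GC fit (without tumour 4 each time), and 2 to 3 without single tumours. The number with a partial gain was 2 and became 1 with the mode, at 0.15 or at 0.3, 5 with the penalty halved, 4 with the limit of 90%, and 1 to 2 without single tumours. The 157 bins became 61 at a minimum mean of 0.2, 115 with the mode, 150 with tumour 11 turned and 148 to 157 without single tumours. The 259 genes became 83 with the mode, 349 with tumour 11 turned, 414 without tumours 9 and 11, and 43 to 379 without single tumours. Chromosome 3 minus chromosome 8 passed only without tumour 7 (0.16, exact permutation adjusted p = 0.0293) and ran from 0.11 to 0.16 without single tumours. Without single tumours the chromosome 3 mean ran from 0.17 to 0.21, Pik3ca minus the rest of the chromosome from 0.05 to 0.09, Pik3ca minus its flanks from 0.03 to 0.06, the first minus the last part from 0.01 to 0.05, and chromosome 3 minus chromosome 15 from 0.02 to 0.06. The chromosome mean and the 5 tested differences kept their direction under every alternative run, and of the differences only that from chromosome 8 changed its side of the threshold. Of 47 named genes with a test 31 were called, and 21 of these lost the call with the mode and 27 without tumour 3 or tumour 6. With tumour 11 turned 3 lost and 10 gained a call. The mean of Rnf115, with no call, was 0.037 and changed sign with tumour 11 turned (-0.064). It ran from -0.015 to 0.087 without single tumours and was below 0 without tumour 11 alone. Medians over probes cannot be used for counts of gained tumours. Single probes and genes of 1 or 2 probes were not tested, and dim spots limit tumour 9 most. No paired analysis was possible because the design has 1 group, and each ratio is already taken within an animal.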
